A study of Mus musculus with 6 samples.

Results

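Cluster 0 was the largest of the 15 groups into which the deposited annotation divides the nuclei of mouse intestinal organoids. Its members were taken as every nucleus carrying the number 0 in that annotation, which gave 11711 of 38154 nuclei (30.7%). The organoids were grown from jejunal crypts of C57BL/6 mice aged 8 to 12 weeks and were kept either in medium conditioned by quiescent, serum-deprived mouse embryonic fibroblasts (QCM, 3 samples) or in medium conditioned by senescent fibroblasts (SCM, 3 samples). The fibroblasts were made senescent by X-rays or by doxorubicin, and the labels do not say which was used for these samples. Nuclei were isolated from frozen organoids and sequenced from the 3′ end of transcripts with a droplet kit that tags each molecule with a unique molecular identifier (UMI). Conditioned medium carries all that the fibroblasts secrete, the organoids hold epithelium without the tissue around the crypt, and nothing in the labels says whether the 3 samples of a medium came from separate mice or cultures, so that p-values measure the spread between these samples, which may be technical.

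The crypt base of the small intestine holds stem cells that carry the R-spondin receptor Lgr5, divide, and feed a zone of rapidly dividing progenitors. These progenitors mature into absorptive enterocytes or into secretory goblet, Paneth, enteroendocrine and tuft cells. Wnt signalling keeps the stem cells in place, Notch signalling sets the choice between absorptive and secretory fates, and YAP and a set of genes active in the fetal gut are known to be switched on in injured epithelium. In nuclei, unspliced transcripts are sampled as well as mature ones, so long genes with many introns are well covered.

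Cluster 0 supplied 305, 3413 and 2547 nuclei of QCM replicates 1, 2 and 3, and 19, 1877 and 3550 nuclei of SCM replicates 1, 2 and 3. SCM replicate 1 stood apart. It held 430 nuclei in all, and 175 of their barcodes (40.7%) were also barcodes of QCM replicate 1, against 0 to 36 shared barcodes in the other 14 pairs of samples. Of its 19 cluster 0 nuclei, 8 carried a barcode that also occurs in QCM replicate 1, and 3 of these barcodes belonged to cluster 0 nuclei there. The summed UMIs of cluster 0 were 3005280, 9305704 and 4834799 in QCM and 111351, 6153446 and 8061238 in SCM, so that a single UMI amounts to 8.98 counts per 1000000 (CPM) in SCM replicate 1 and to between 0.107 and 0.333 CPM elsewhere. Across 4666 genes at a mean of 50 CPM or more, log2(CPM + 1) of the cluster 0 sum of SCM replicate 1 correlated with that of the other samples at 0.643 to 0.783, and the other samples among themselves at 0.687 to 0.970. Its values are therefore given apart where a result below turns on them.

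The level of the marker genes named for the cluster was compared between cluster 0 and all other nuclei of the same sample. The clusters were built from the expression of these nuclei, so every such ratio is a description and carries no test. Lgr5 stood at 249, 625 and 389.5 CPM in cluster 0 of the QCM samples and at 898, 1008 and 497 CPM in the SCM samples. In the other nuclei it stood at 180.2, 579 and 267 CPM in QCM and at 524, 729 and 419 CPM in SCM. Lgr5 was higher in cluster 0 in 6 of 6 samples, with a median log2 ratio of 0.47 (0.11 to 0.78), which is a modest enrichment. Nhs, whose product takes part in actin remodelling and lens development, stood at 92.8, 208 and 154 CPM in cluster 0 of QCM and at 53.9, 209.5 and 186 CPM in SCM. The other nuclei held 63.2, 150.1 and 106 CPM of Nhs in QCM and 135, 139 and 125 CPM in SCM. The ratio of Nhs was above 0 in 5 of 6 samples, with a median log2 ratio of 0.54, and the exception was SCM replicate 1 at -1.31, where Nhs had 6 UMIs. Ranked by this median among 10536 genes at 10 CPM or more in cluster 0 or in the other nuclei, Nhs was gene 58 and Lgr5 gene 158.

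Neither gene was particular to the cluster. Over the 15 clusters, the mean Lgr5 level of the 6 samples was highest in cluster 14 (673 ± 281 CPM, SD, n = 6), then in cluster 2 (649 ± 299), cluster 0 (611 ± 294) and cluster 11 (599.5 ± 357), all within each other's spread. It was lowest in cluster 8 (214 ± 68.9 CPM). Cluster 14 held only 92 nuclei (median 39432.5 UMIs), and its QCM replicate 3 stood at the same 899.8 CPM for Lgr5 and for Nhs. Smoc2, which encodes a secreted matrix protein of crypt base stem cells, had rank 3 in cluster 0 (999.5 ± 377 CPM). It came behind cluster 11 (1127 ± 589), where SCM replicate 1 gave the highest value at 1967 CPM, and cluster 2 (1004 ± 328). Nhs also had rank 3 (151 ± 64.3 CPM), behind cluster 14 (290.5 ± 301), whose mean rests largely on QCM replicate 3, and cluster 2 (164 ± 35.4). The nuclei are therefore called cluster 0 here and given no cell type name.

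**Figure D1:**
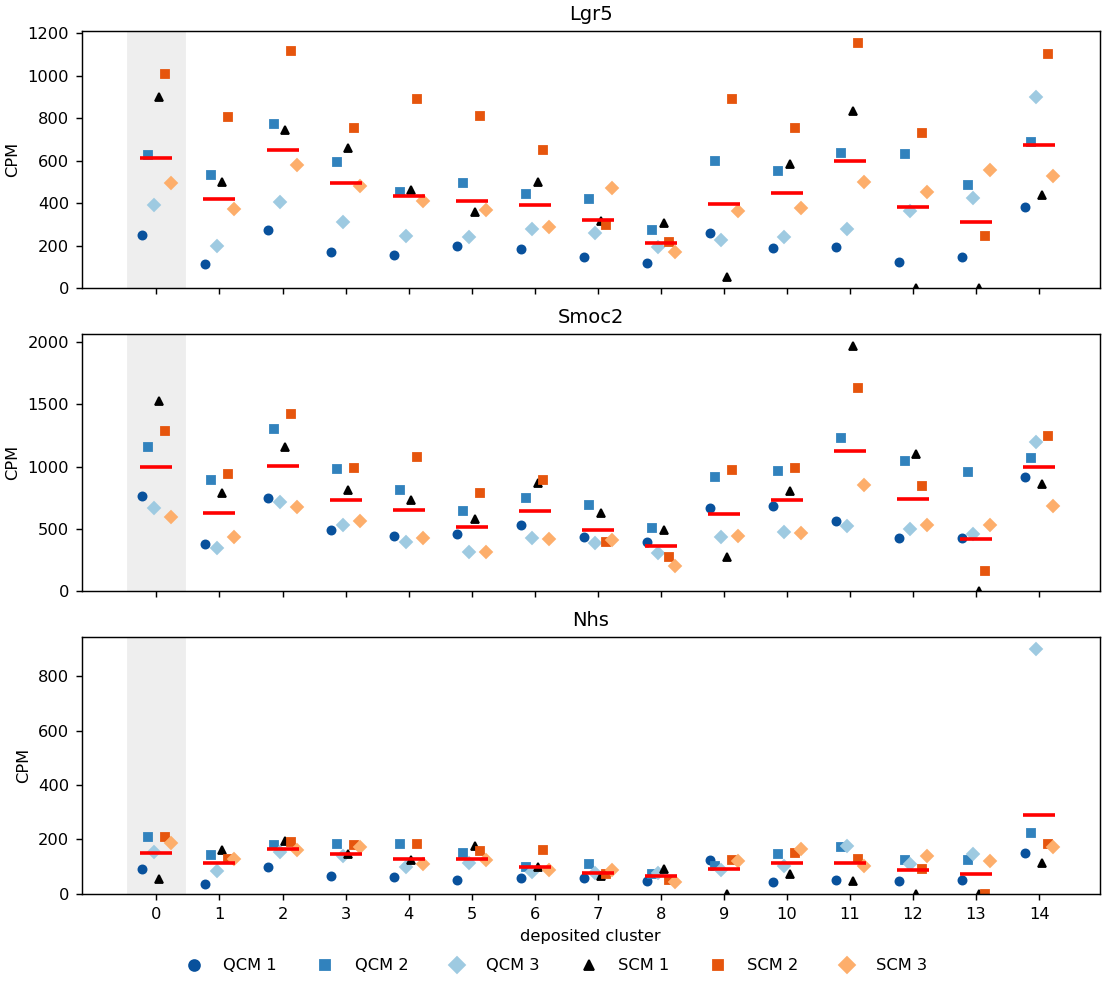
CPM of Lgr5, Smoc2 and Nhs in the summed counts of each deposited cluster, with 1 symbol per sample and a red bar at the mean over the 6 samples; cluster 0 is shaded. Lgr5 and Smoc2 lie at like levels in clusters 0, 2, 11 and 14, and are lowest in cluster 8, and SCM replicate 1 lies at 0 CPM in some of the small clusters.

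Over all genes, the ratios of cluster 0 to the other nuclei were small. Of the 10536 genes, 1749 (16.6%) were higher in cluster 0 than in the other nuclei in 6 of 6 samples and 996 (9.45%) were lower in 6 of 6. Of the genes higher in every sample, 0 reached a median of 2-fold and 23 reached 1.5-fold, whereas 125 of the genes lower in every sample were lower by at least 2-fold and 255 by at least 1.5-fold. Part of this follows from the filter, since 447 genes reached 10 CPM only in the other nuclei and 287 only in cluster 0. Among the 9802 genes at 10 CPM or more in both, 1678 were higher and 749 lower in 6 of 6 samples, with 0 higher and 25 lower by at least 2-fold and 19 higher and 91 lower by at least 1.5-fold. The highest median log2 ratio of any gene higher in every sample was 0.80, for Far2os1, and the median over all genes was 0.07. Without SCM replicate 1, 3135 genes (29.8%) were higher and 1327 (12.6%) lower in 5 of 5 samples. With every nucleus thinned to 1000 UMIs, 1057 genes (10%) were higher and 866 (8.22%) lower in 6 of 6.

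The 15 leading genes at 50 CPM or more had medians between 0.59 and 0.80. Kif18a, a kinesin that dampens chromosome movements at the spindle, stood at 86.2, 108 and 81.7 CPM in QCM and at 162, 125 and 96.3 CPM in SCM, against 53.04, 83.6 and 49.8 CPM in the other QCM nuclei and 87.4, 86.0 and 68.6 CPM in the other SCM nuclei. Its median log2 ratio was 0.61 (0.37 to 0.88). Knl1, a scaffold of the kinetochore, had a median of 0.61 (0.29 to 0.63), and Cdca2, which brings a phosphatase to mitotic chromosomes, one of 0.61 (0.24 to 0.89). Pdss1, an enzyme that makes the side chain of ubiquinone, had 807 ± 221 CPM in cluster 0 and 542 ± 140 CPM in the other nuclei (SD, n = 6). The nuclear receptor Esrrg had 238 ± 106 against 141 ± 40.5 CPM. All 6 samples lay on the same side of 0 for each of these genes because the choice of the leading genes required it. Against cluster 2, described further on as the cluster most like cluster 0, the medians of the 15 genes lay between -0.16 and 0.16, with 0.11 for Kif18a, 0.10 for Knl1 and 0.16 for Cdca2. Against cluster 3 those of these 3 genes were -0.02, -0.05 and -0.11, and against cluster 5 they were 0.70, 0.60 and 0.84.

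Of the 15 leading genes, 5 lie wholly inside a gene on the opposite strand, while 584 of 10524 genes at this level (5.55%) do so. A930009A15Rik (chr10:115569986-115582448, GRCm38, plus strand; median log2 ratio 0.72) lies inside Lgr5 (chr10:115450311-115587780, minus strand), Far2os1 (0.80) inside Far2, Aspn (0.63) inside the centromere gene Cenpp, Gm15592 (0.60) inside the chloride channel gene Cftr, and Gm8979 (0.59) inside Gm20663. The genes around them had median log2 ratios of 0.47 for Lgr5, 0.45 for Far2, 0.48 for Cenpp, 0.46 for Cftr and 0.55 for Gm20663, and were higher in 6 of 6 samples except Cenpp, which was higher in 5. How the counting treated the strand is not given in the sources used here, so the reads of these 5 genes cannot be told apart from those of the genes around them. The remaining leading genes were the noncoding Jpx (0.62), B130034C11Rik (0.63) and Gm15645 (0.76) and the coding Efcab11 (0.60) and Papln (0.60).

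The order of the leading genes depended on SCM replicate 1, which gave the highest of the 6 ratios for most of them. Chosen by the same rule without it, the 15 leading genes shared 7 with the list above, namely Gm15645, Aspn, Knl1, Efcab11, Gm8979, Pdss1 and Cdca2. The others were Gm20663, Syde2, 2700038G22Rik, Gm48228, Neil3, a DNA glycosylase of dividing cells, Cfap52, Gm42047 and Depdc1a, a mitotic gene. With thinned nuclei the leading list shared 2 genes with the first, and the median log2 ratio was 0.32 for Far2os1, 0.40 for A930009A15Rik, 0.26 for B130034C11Rik, 0.28 for Gm15592 and 0.40 for Gm8979.

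Promoters are shown for the leading genes Kif18a and Knl1, for Kif11, the motor that pushes spindle poles apart and a gene whose pattern over clusters resembled that of Lgr5, and for the cluster marker Nhs, so that the G2 and M phase genes described below can be set beside the elements known from such promoters. Each line gives the 150 bases before the start of the gene in RefSeq on GRCm38.p6, written 5′ to 3′ on the strand of the gene, with every CCAAT box (CCAAT, both strands) and every cell cycle homology element (TTTGAA, both strands) in capitals.
Kif18a, chr2:109280588-109280737, plus strand: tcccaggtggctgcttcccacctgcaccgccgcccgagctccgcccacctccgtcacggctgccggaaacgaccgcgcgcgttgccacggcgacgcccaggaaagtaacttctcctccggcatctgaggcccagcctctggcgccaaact
Knl1, chr2:119046969-119047118, plus strand: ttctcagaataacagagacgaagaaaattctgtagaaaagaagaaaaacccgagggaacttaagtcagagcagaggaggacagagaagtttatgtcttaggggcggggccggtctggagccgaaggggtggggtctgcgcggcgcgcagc
Kif11, chr19:37376232-37376381, plus strand: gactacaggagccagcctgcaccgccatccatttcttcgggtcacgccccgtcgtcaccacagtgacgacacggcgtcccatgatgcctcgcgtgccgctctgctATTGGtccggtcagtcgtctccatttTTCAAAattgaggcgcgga
Nhs, chrX:162159442-162159591, minus strand: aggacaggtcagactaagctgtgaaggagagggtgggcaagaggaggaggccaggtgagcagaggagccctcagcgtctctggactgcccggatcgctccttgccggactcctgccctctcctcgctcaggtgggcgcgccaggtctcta
In these windows Kif11 holds 1 CCAAT box and 1 cell cycle homology element, and the other 3 hold neither. Over the 250 bases before the start, 14 of 19 promoters of 18 genes of the G2 and M phase list hold a CCAAT box (73.7%), against 33.8% of 32851 promoters of all genes, and 6 of the 19 (31.6%) hold the homology element, against 16% of all. The CCAAT box is not particular to that list, as 4 of 5 promoters of the stem cell signature (80%) hold it too. A match is a description of the letters and not of a bound site.

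The 10 genes lowest in cluster 0 were lower by more than the leading genes were higher. Their choice required 50 CPM in the other nuclei alone and a ratio below 0 in 6 of 6 samples, so their direction is no result. Cdh13 and Myof averaged 5.61 and 9.25 CPM in cluster 0, under 10 CPM, and entered only through the other nuclei. Ptprn2, a receptor-like phosphatase of dense-core secretory vesicles, stood at 19.3, 22.1 and 21.5 CPM in cluster 0 of QCM and at 8.98, 27.0 and 23.3 CPM in SCM, against 61.7, 245 and 154 CPM in the other QCM nuclei and 87.6, 164 and 176 CPM in the other SCM nuclei. Its median log2 ratio was -2.82 (-3.41 to -1.63). The potassium channel genes Kcnma1 and Kcnb2 followed at -2.60 and -2.51. The goblet mucin gene Muc2 had a median of -1.56 and the mucus protein gene Fcgbp one of -1.22. In SCM replicate 1, Muc2 had 0 UMIs in cluster 0, which allows up to 26.9 CPM (3 counts of its 111351 UMIs). Myof, a membrane repair gene listed among YAP targets, had a median of -1.91, the adhesion gene Cdh13 one of -1.98 and the phospholipase gene Plcb1 one of -1.75. The small nuclear RNA Rn7sk had a median of -1.86 with the widest levels, from 15.04 to 494 CPM in cluster 0. The gene 5330417C22Rik completed the list at -1.38. Without SCM replicate 1, all 10 were again the 10 lowest. With thinned nuclei the median of Myof was nearer to 0, at -0.99, and those of the others lay between -2.60 and -1.15. Against clusters 2, 3 and 5, the clusters most like cluster 0, the median log2 ratios of these genes were nearer to 0, except that of Rn7sk to cluster 3, which was -3.25. In turn they were 0.01, -0.16 and 0.05 for Ptprn2, 0.10, -0.50 and 0.04 for Kcnma1, 0.13, -0.27 and -0.21 for Kcnb2, -0.04, -0.42 and -0.05 for Muc2, and -0.76, -0.74 and -1.15 for Cdh13.

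**Figure D2:**
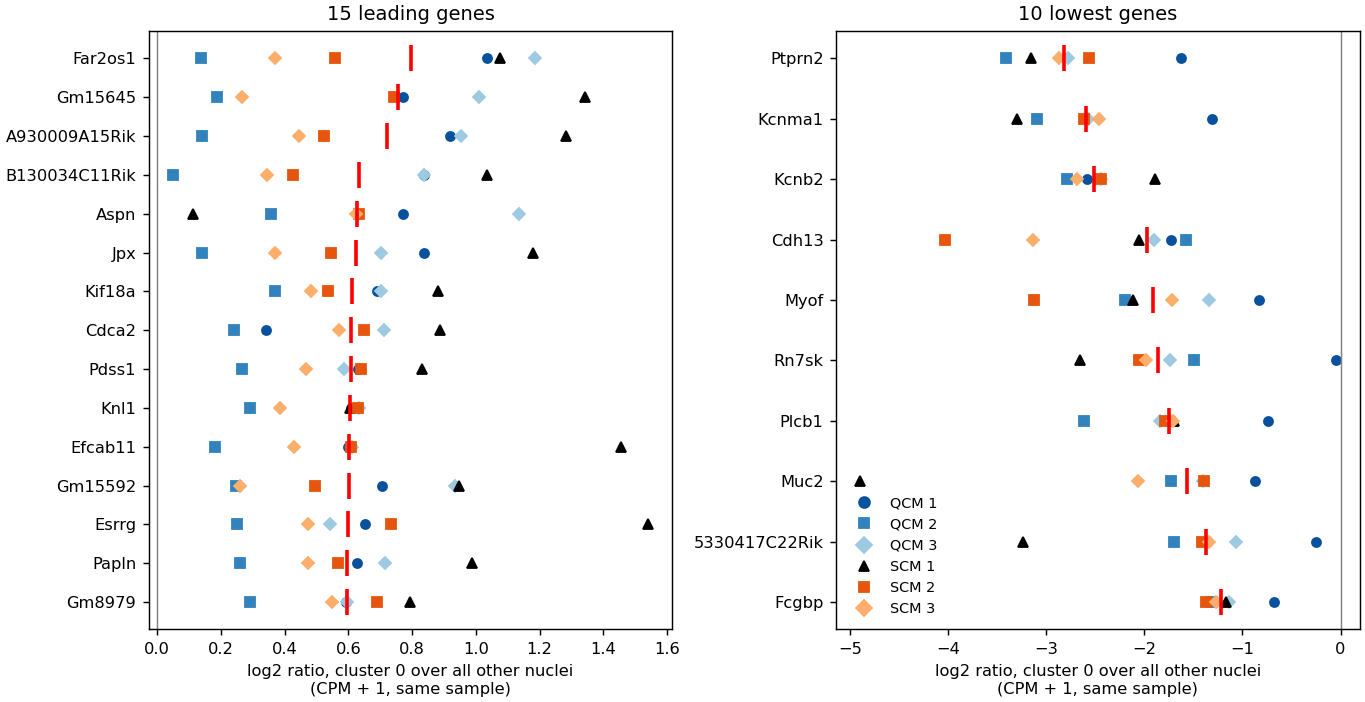
Log2 ratio of cluster 0 over all other nuclei of the same sample (CPM plus 1) for the 15 leading and the 10 lowest genes, with 1 symbol per sample and a red bar at the median. The medians of the leading genes lie between 0.59 and 0.80 and those of the lowest genes between -2.82 and -1.22, and SCM replicate 1 (black triangles) is often the outermost point.

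The G2 and M phase list had the highest median of the lists, and most lists of mature or regenerating epithelium had medians below 0. Of the 21 genes of the G2 and M phase list, all measured at 10 CPM or more, 8 were higher in 6 of 6 samples and 0 lower, beside the 16.6% and 9.45% of all genes given above, with a median log2 ratio of 0.31. Without SCM replicate 1, 14 of 21 were higher in 5 of 5 samples, beside 29.8% of all genes, and with thinned nuclei 4 of 21 were higher in 6 of 6, beside 10% of all genes. Kif20b, a kinesin of late mitosis, stood at 99.8, 155 and 101 CPM in cluster 0 of QCM and at 144, 164 and 135 CPM in SCM, with a median log2 ratio of 0.38. Bub1, a spindle checkpoint kinase, had 0.42 and Nusap1, which binds spindle microtubules, 0.35. Ube2c and Plk1, which act in the exit from and entry into mitosis, had medians of -0.10 and -0.07 and were higher in 2 of 6 samples each. Of the 14 measured S phase genes, 1 was higher in 6 of 6 samples, a smaller share than over all genes, with a list median of 0.19, and without SCM replicate 1, whose median for the list was -0.96, 9 were higher in 5 of 5.

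Stem cell genes were higher by small amounts. Of the 7 genes of the stem cell signature that the study used, 6 reached 10 CPM, and Lgr5, Smoc2, Lrig1 and Axin2 were higher in 6 of 6 samples, with median log2 ratios of 0.47, 0.54, 0.38 and 0.12. Smoc2 stood at 765, 1155 and 669 CPM in cluster 0 of QCM and at 1527, 1284 and 597 CPM in SCM. Olfm4, a secreted stem cell glycoprotein, had a median of 0.05 with 3 of 6 samples higher, and the chromatin protein gene Hmgb2 one of -0.16 with 1 of 6 higher. Ascl2, a transcription factor of crypt base cells, was under 10 CPM, at 0.00 to 3.597 CPM in cluster 0 and with 5 of 6 samples lower than in the other nuclei. Of a wider list of crypt base genes, 8 of 15 measured were higher in 6 of 6, beside 16.6% of all genes, and 3 of 15 with thinned nuclei, beside 10%. Among the 8 were Rgmb (0.43), Vdr (0.28), Kcnq1 (0.25) and Slc12a2 (0.19). Other members went the other way. Ets2 was lower in 6 of 6 (-0.12), and Igfbp4 (-0.36) and Sox9 (-0.09) were lower in 5 of 6. The median of this wider list was 0.17. Of the canonical Wnt list, 4 of 12 were higher in 6 of 6, beside 16.6% of all genes. These were the receptors Lgr4 (0.25) and Lrp6 (0.09) and the feedback ligases Znrf3 (0.33) and Rnf43 (0.28). Ctnnb1, which encodes beta-catenin, was lower in 6 of 6 (-0.12). The median of the canonical Wnt list was 0.09, near the 0.07 of all genes, and with thinned nuclei 0.05 beside 0.06. Of the receptors of noncanonical Wnt signalling, Ror2 averaged 179.8 and Ryk 65.4 CPM, and Ptk7 and Fzd7 stood lower, at 9.89 ± 8.65 and 4.98 ± 2.53 CPM (SD, n = 6). The Ptk7 mean rests on 3 UMIs of SCM replicate 1, and is 6.48 ± 2.52 CPM over the other 5 samples. Of the Notch list 2 of 11 genes were higher in every sample, of BMP and TGF-beta 6 of 14, and of the Hippo core with TEAD factors 2 of 11. Over all genes the share was 16.6%. The medians of these lists were 0.10, 0.13 and 0.11, beside the 0.07 of all genes. With thinned nuclei the counts were 1 of 11, 6 of 14 and 1 of 11, beside 10% of all genes. The thinned median of the BMP and TGF-beta list was 0.18, beside 0.06. Yap1 had a median of 0.12 with 5 of 6 samples higher.

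The lists of mature lineages lay below the other nuclei. Some of their members reached 10 CPM only in the other nuclei, so that their direction follows from the filter, and the counts here are over the members at 10 CPM or more in both. Of these, 5 of 5 goblet genes, 7 of 12 enterocyte genes, 3 of 4 Paneth genes and 1 of 3 enteroendocrine genes were lower in 6 of 6 samples, beside 749 of 9802 genes in all, with median log2 ratios of -0.64, -0.38, -0.43 and -0.67. Krt20, a keratin of the villus, had a median of -1.16 and Apoa1, an apolipoprotein of enterocytes, one of -1.05, while the disaccharidase gene Mgam had 0.06. Of the fetal list, 6 of 6 such genes were lower in 6 of 6 samples (median -0.84), among them Anxa1 at -0.97, Clu at -0.95 and the calcium-binding S100a6 at -0.73. Of 5 YAP target genes, 2 were lower and 1 higher in 6 of 6 (median -0.08). The medians were -0.42 for immediate early genes (5 of 6 lower in 6 of 6), -0.22 for genes of the p53 response (2 of 7), -0.35 for the cytosolic ribosomal protein genes (43 of 80) and -0.22 for the oxidative phosphorylation genes (19 of 73). With the members that entered only through the other nuclei, the medians were further from 0, at -0.94 for goblet, -0.54 for Paneth, -0.85 for enteroendocrine, -0.98 for fetal, -0.57 for YAP target, -0.51 for immediate early and -0.40 for p53 response genes. No gene of the tuft, fibroblast or immune lists reached 10 CPM. The summed level of the tuft list was 4.62 to 17.96 CPM in cluster 0 and 16.4 to 38.9 CPM in the other nuclei. The summed level of the fibroblast list was 0.00 to 13.8 CPM, with Col1a1 at 0 UMIs in all samples but SCM replicate 3, where it had 1, and that of the immune list was 0.00 to 4.22 CPM.

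**Figure D3:**
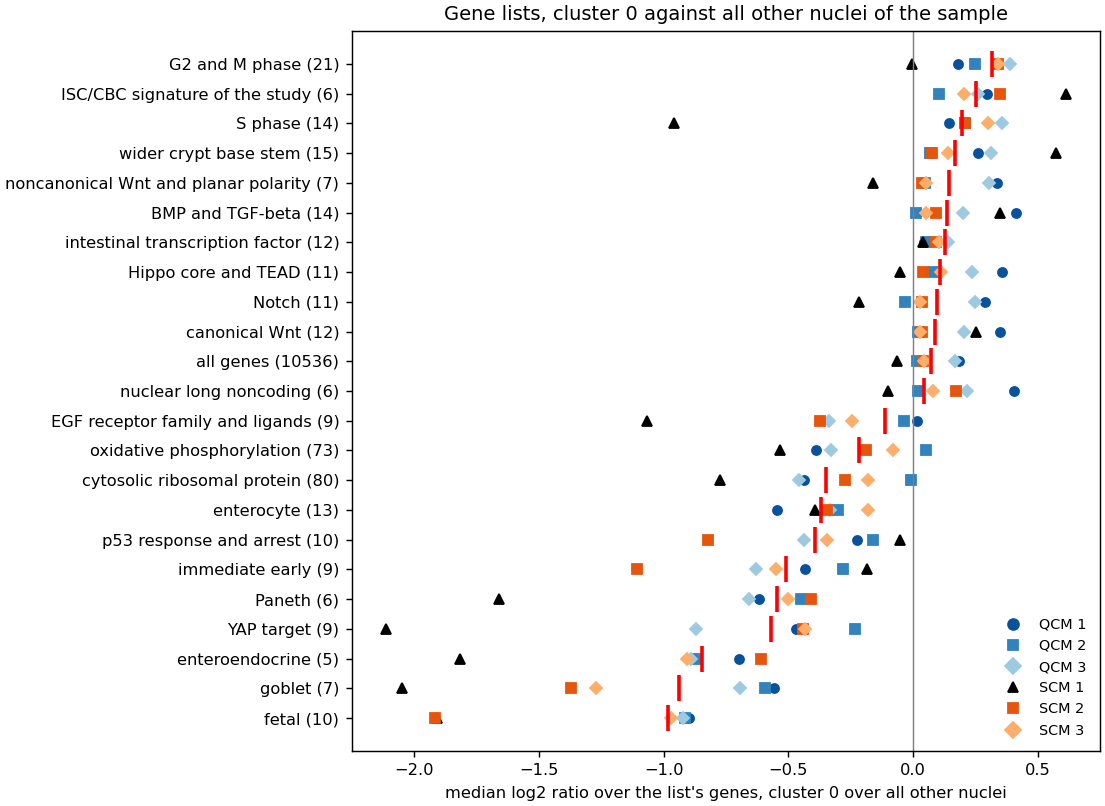
Median log2 ratio of cluster 0 over all other nuclei for each gene list with genes at 10 CPM or more (number of genes in brackets), with 1 symbol per sample and a red bar at the median of the genes' medians. The G2 and M phase list (0.31) and the stem cell signature (0.25) lie highest and the fetal list (-0.98) lowest, partly through genes that reach 10 CPM only in the other nuclei, and SCM replicate 1 departs most from the other samples for the S phase and YAP target lists.

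The clusters most like cluster 0, by correlation of mean log2(CPM + 1) across 31319 genes, were cluster 2 (r = 0.995, 4679 nuclei), cluster 3 (0.991, 2339 nuclei) and cluster 5 (0.990, 2253 nuclei). Over the lists, the median log2 ratio to cluster 2 lay between -0.16 for YAP targets and 0.14 for enteroendocrine genes. It was -0.10 for the stem cell signature, 0.12 for the G2 and M phase list and 0.08 for ribosomal protein genes, and 304 genes (2.89%) were higher in cluster 0 in 6 of 6 samples. Among genes on one side in 6 of 6 samples and at 50 CPM or more in the cluster with the higher level, those that differed most from cluster 2 were Ypel2 (-0.44), the calcium channel gene Cacna1a (-0.44) and Rn7sk (-0.40), all lower in cluster 0. Against cluster 3, the replication-dependent histone genes Hist1h2bj (-3.04) and Hist1h2bm (-2.85) and Rn7sk (-3.25) were lower in cluster 0, and the G2 and M phase list had a median of -0.21, while 1464 genes (13.9%) were higher in 6 of 6. Against cluster 5, Fam129a (-3.59), a stress response gene, and the manganese exporter gene Slc30a10 (-2.90) were lower, whereas the S phase, G2 and M phase and stem cell lists had medians of 0.45, 0.42 and 0.39 and 1161 genes (11%) were higher in 6 of 6.

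Genes higher in cluster 0 were longer. The median gene length was 45685 bases among genes higher in 6 of 6 samples, 11899.5 bases among those lower in 6 of 6, and 26158 bases over all 10528 genes with an annotated length. With the genes cut by length into 5 bins of equal size, 7.50% of the shortest (57 to 8811 bases) were higher in every sample, 16.2% of the middle bin, and 27.7% of the longest (73189 bases and more). Across genes, which are not independent replicates, Spearman's correlation of length with the median ratio was 0.246. Ribosomal protein and oxidative phosphorylation genes, both short, lay on the lower side of this range. The median share of mitochondrial UMIs, as deposited, was also lower in cluster 0 than in the other nuclei in 6 of 6 samples, at 0.755 against 1.02%, 1.65 against 2.01% and 2.5 against 4.72% in QCM, and at 0.491 against 0.845%, 1.91 against 2.45% and 3.12 against 3.84% in SCM. The part of gene length and of cytoplasmic RNA in the ratios above was not tested.

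Levels within the cluster were compared between nuclei at a common depth of 1000 UMIs, which left out 0, 146 and 214 nuclei of the QCM samples and 9, 39 and 33 of the SCM samples. At this depth Lgr5 was detected in 16.1, 38.1 and 26.0% of QCM nuclei and in 50, 53.2 and 31.85% of SCM nuclei, the first of the SCM values being 5 of 10 nuclei (95% Wilson interval 23.7 to 76.3%). In the enterocyte-like cluster 8, named for its enterocyte genes, the shares were 12.8, 15.7 and 12.8% in QCM and 27.3, 23.4 and 14.05% in SCM. Cluster 0 exceeded this level in every sample. The intervals overlapped in QCM replicate 1, at 12.4 to 20.6% and 8.78 to 18.4%, and in SCM replicate 1. In the latter, cluster 8 had 11 nuclei and an interval of 9.75 to 56.6%. Detection in cluster 0 was thus not set apart from that in cluster 8 in either sample. Whether cluster 8 holds Lgr5 transcripts of its own was not tested. In the tuft-like cluster 11, 14.3, 39.1 and 23.1% of QCM nuclei had an Lgr5 UMI. In SCM the shares were 33.3, 50 and 29.4%, the first from 3 nuclei. The share was higher in cluster 11 in QCM replicate 2 and higher in cluster 0 in the other samples. The intervals of clusters 0 and 11 overlapped in every sample, so detection in cluster 0 was not set apart from that in cluster 11. The median depths of clusters 0, 8 and 11 before thinning were 2111, 2366.5 and 2080.5 UMIs per nucleus, and these intervals cover counting error only. Sis, the sucrase gene of enterocytes, was found in a median of 28.4% of cluster 0 nuclei and 65.4% of cluster 8 nuclei, and Muc2 in 1.92% against 26.7% in cluster 6, where it was most frequent.

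The spread between cluster 0 nuclei was measured by the ratio of variance to mean. Over 4573 genes with a mean of 0.05 UMI or more, the median ratio, which is 1 for pure counting, was 1.03 and the 95th percentile 1.12, as medians over the 5 samples with at least 100 nuclei. The ratio grows with the mean of a gene and lies near 1 at low counts whatever the variation, so it does not show that nuclei were alike and does not rank genes of different means by how much they varied. The ratio exceeded 2 for 4 genes, Gm42418 (12.7), Gm26917 (8.09), Malat1 (5.11) and Gm23935 (3.90). Malat1 is a long noncoding RNA that stays in the nucleus. The next were Slit2 (1.85), a guidance ligand, Rn7sk (1.83), Gm20275 (1.64), Cmss1 (1.62), Lgr5 (1.59) and Kcnq1ot1 (1.54). For Lgr5, with a mean of 0.482 UMI, the ratio ranged from 1.07 to 1.61 over samples. It was 1.38 for Smoc2 at a mean of 0.695 UMI and 1.21 for Nhs at 0.160 UMI, and the ranges of the 3 genes overlapped.

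Over the 15 clusters, the genes whose mean log2(CPM + 1) followed that of Lgr5 most closely among 10080 genes were Rgmb (r = 0.976), a co-receptor of BMP signalling, Cep128 (0.971), a centriole gene, Rad51b (0.969), a DNA repair gene, Kif11 (0.966) and Mettl16 (0.959), an RNA methyltransferase. The 15 points share the same 6 libraries and their depths, and the correlations are descriptions.

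The effect of senescent medium within cluster 0 was asked next, with the sample as the replicate. The share of nuclei in cluster 0 was 8.05, 43.0 and 25.1% in QCM and 4.42, 37.4 and 32.8% in SCM, so that each medium held a low replicate 1. The means were 25.4 ± 17.5% and 24.85 ± 17.8% (SD, n = 3 each), and an exact two-sided permutation test over samples gave p = 1, where 0.1 is the smallest p that 3 against 3 samples allow. Without SCM replicate 1 the difference turned from -0.55 to 9.66 percentage points, and without replicate 1 of both media it was 0.985. The median UMIs per cluster 0 nucleus were 6683, 2252 and 1667 in QCM and 1514, 2554 and 2021 in SCM (exact permutation p = 0.6, n = 3 each). The difference of -1504 UMIs between the means rested on QCM replicate 1, and without it came to 70.2 UMIs.

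Ribosomal protein genes took 11.2, 5.18 and 8.48% of the cluster 0 UMIs in QCM and 2.60, 2.35 and 6.98% in SCM, and the groups overlapped (exact permutation p = 0.2, n = 3 each). The other nuclei of the same samples held 15.2, 5.23 and 11.6% in QCM and 4.35, 2.88 and 7.95% in SCM, higher than cluster 0 in 6 of 6 samples. The share of nuclei with an Lgr5 UMI at 1000 UMIs, given above, had means of 26.7 ± 11.04% in QCM and 45 ± 11.5% in SCM (exact permutation p = 0.2, n = 3 each), and without thinning 51.3 ± 13.3% and 55.8 ± 17.7%. With SCM replicate 1 left out, the difference was 15.8 percentage points for Lgr5 and -3.61 for the ribosomal share. In the same order the differences were 12.94 and -2.855 without QCM replicate 1, and 24.85 and -5.80 without SCM replicate 3. Without replicate 1 of both media they were 10.44 and -2.17. Adjusted over these 4 tests, the p-values were 1 for the share of nuclei, 0.8 for depth and 0.4 for each of the remaining pair, from the exact permutation tests.

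**Figure D4:**
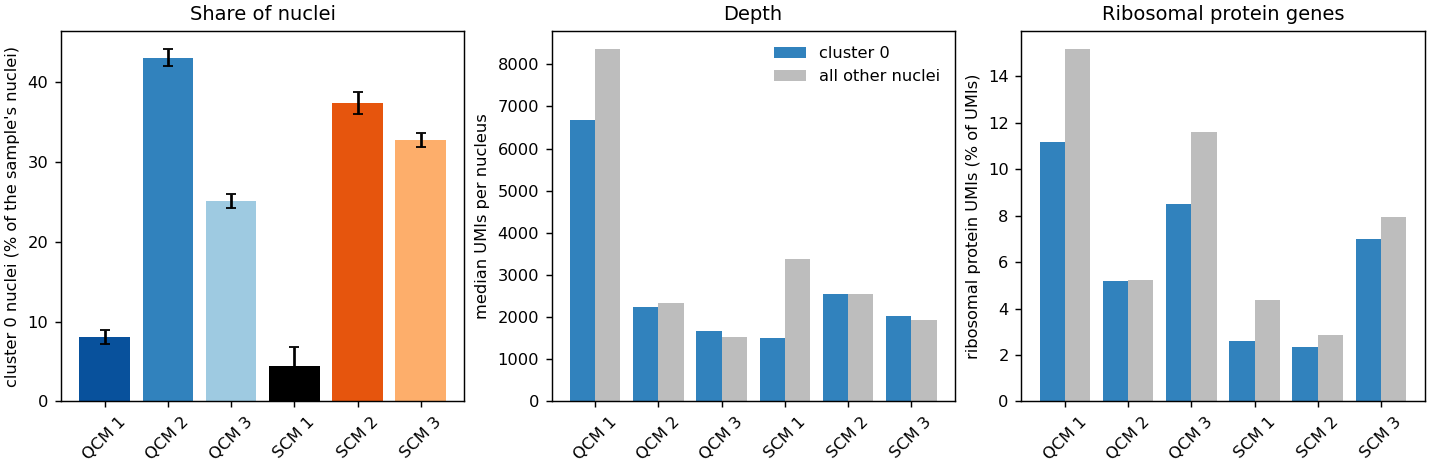
For each sample, the share of its nuclei that lie in cluster 0 (bars with 95% Wilson intervals, left), the median UMIs per nucleus (middle) and the percentage of UMIs from ribosomal protein genes (right), the middle and right panels for cluster 0 (blue) and all other nuclei (grey). Replicate 1 of both media has the lowest share, QCM replicate 1 the deepest nuclei, and the ribosomal share is lower in cluster 0 than in the other nuclei of every sample.

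No gene of cluster 0 passed the test between media. On the counts summed per sample, the edgeR quasi-likelihood test called 0 of 14430 genes at an adjusted p under 0.05 (0%), the smallest adjusted p being 0.988, and DESeq2 and limma with voom called 0 as well. At an unadjusted p under 0.05 edgeR listed 497 genes (3.44%), of which 82 (0.568%) had a higher and 415 (2.88%) a lower estimate in SCM, DESeq2 297 and limma 244. The excess of lower estimates was not stable, as limma with quantile normalization listed 132 higher and 112 lower genes, edgeR 78 and 66 when QCM replicate 1 was dropped, and 112 and 80 with replicate 1 of both media dropped. Leaving out SCM replicate 1 gave 303 such genes and leaving out QCM replicate 1 gave 144. The count was 86 when SCM replicate 2 was dropped, 1143 when SCM replicate 3 was, and 1388 when QCM replicate 2 was. With replicate 1 of both media dropped it was 192.

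Without the filter on low counts, edgeR called 133 of 28809 genes (15 with a higher SCM level, 118 with a lower one), including 8 of the 10 genes described next. The genes with the smallest unadjusted p are given as values. With higher estimates in SCM were 2 annexin genes of the fetal list and Clu, which encodes clusterin and marks the revival stem cell of injured gut. Clu stood at 26.6, 8.81 and 14.7 CPM in QCM and at 44.9, 121.7 and 38.5 CPM in SCM, without overlap. Its log2 ratio was 2.14 ± 0.50 (SE, here and below worked back from the edgeR test statistic). Anxa1 stood at 9.32, 3.76 and 4.34 against 8.98, 24.5 and 16.0 CPM (1.76 ± 0.42), where the value of SCM replicate 1 is 1 UMI and overlaps QCM. Anxa3 stood at 10.98, 8.06 and 10.3 against 17.96, 24.9 and 24.9 CPM (1.28 ± 0.27), without overlap, although the value of SCM replicate 1 is 2 UMIs and 1 UMI fewer would overlap. The pseudogene Mgam2-ps, which shares sequence with Mgam and may share its reads, stood at 9.65, 18.3 and 18.4 against 89.8, 48.6 and 42.2 CPM (1.61 ± 0.29), and the calcium-activated chloride channel gene Ano1 at 5.32, 11.4 and 20.5 against 8.98, 47.6 and 40.7 CPM (1.64 ± 0.42). The edgeR adjusted p of all 5 was 0.988. In the other nuclei the means of all 5 were higher in SCM as well. In QCM and SCM they were 30.55 and 217 CPM for Clu and 11.2 and 57.9 CPM for Anxa1. They were 23.4 and 75.5 CPM for Anxa3, 16.3 and 54.9 CPM for Mgam2-ps, and 21.2 and 122.6 CPM for Ano1.

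With lower estimates in SCM were Prap1, a secreted protein of mature enterocytes, at 574, 199 and 218 CPM in QCM against 89.8, 85.6 and 157 CPM in SCM (-1.60 ± 0.45), and the tight junction gene Cldn3, at 219, 173 and 132 against 62.9, 68.6 and 113 CPM (-1.07 ± 0.29). Smim24 (-1.09 ± 0.30), the sterol-related Tmem97 (-0.76 ± 0.22) and Mfge8 (-0.88 ± 0.26), whose product bridges dying cells to phagocytes, followed. None of the 5 overlapped between media, where the Mfge8 value of SCM replicate 1 is 2 UMIs, and the edgeR adjusted p of each was 0.988. Without SCM replicate 1 the estimates were 2.24 for Clu, 1.82 for Anxa1, 1.32 for Anxa3, 1.49 for Mgam2-ps, 1.77 for Ano1, -1.51 for Prap1, -0.97 for Smim24, -0.99 for Cldn3, -0.71 for Tmem97 and -0.87 for Mfge8. Other samples moved some of them by more. The Clu estimate was 1.22 without SCM replicate 2, which held its highest level, and 2.76 without replicate 1 of both media. The Prap1 estimate was -0.86 without QCM replicate 1 and -0.79 without replicate 1 of both media. Over all genes, 587 (4.07%) lay higher and 659 (4.57%) lower in SCM without overlap.

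Of the stem cell genes, Lgr5 had a log2 ratio of 0.83 ± 0.35 (SE; edgeR adjusted p = 0.988), with the overlapping levels given above, and Smoc2 one of 0.27 ± 0.35. Axin2, a feedback target of Wnt signalling, stood at 72.5, 89.2 and 74.7 CPM in QCM and at 126, 124.5 and 85.2 CPM in SCM (0.38 ± 0.20). Hmgb2 lay at 379, 179 and 193 against 126, 117 and 178 CPM, without overlap (-0.89 ± 0.34). Lrig1 (0.34 ± 0.28), Olfm4 (-0.03 ± 0.28), Nhs (0.10 ± 0.37) and Yap1 (0.09 ± 0.19) overlapped. With SCM replicate 1 left out, the estimate was 0.80 for Lgr5, 0.07 for Smoc2, 0.36 for Axin2 and -0.83 for Hmgb2. Ascl2 had 0 to 29 UMIs per sample (0.57 ± 0.49), Fzd7 0 to 65 (-0.20 ± 0.38) and Ptk7 3 to 58 (0.71 ± 0.45). Ccn2, a YAP target, had 0 to 9 UMIs per sample and was not tested.

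By list, the estimates of SCM against QCM ran from the fetal to the Paneth genes. All 8 tested fetal genes had higher estimates in SCM (median 1.29, from 0.07 to 2.14) and 5 were among the 82 genes at p under 0.05, beside the median of -0.03 for all genes, of which 45.7% had a higher estimate. These included Ly6a (1.29 ± 0.40) and Msln (1.37 ± 0.49). Of 12 YAP targets, 9 had higher estimates (median 0.35) and 3 lay at p under 0.05, among them Myof at 6.66, 4.19 and 5.79 CPM in QCM and 8.98, 18.4 and 11.5 CPM in SCM (1.37 ± 0.36). Ptpn14 had 0.89 ± 0.58. Clu, Anxa1 and Ly6a of the fetal list and Myof and Ptpn14 of the YAP targets had been singled out by earlier results of these data. The counts and medians of these lists are therefore no independent support. The stem cell signature had a median of 0.34 (5 of 7 higher), the wider crypt base list one of 0.24 (13 of 16) and the canonical Wnt list one of 0.23 (10 of 13). These 3 medians were smaller when QCM replicate 1 or SCM replicate 2 was dropped, at 0.21, 0.15 and 0.15 without QCM replicate 1 and 0.21, 0.20 and 0.15 without SCM replicate 2, and with thinned nuclei they were 0.19, 0.11 and 0.13. Genes of mature lineages had lower estimates, with medians of -0.90 for enterocyte (13 of 14 lower), -0.91 for goblet (7 of 7), -1.10 for Paneth (5 of 6) and -0.77 for enteroendocrine genes (5 of 6). Apoa4, an apolipoprotein gene, stood at 483, 18.6 and 37.85 CPM in QCM and at 26.9, 20.15 and 38.95 CPM in SCM, so that its estimate of -2.70 ± 1.08 rests on QCM replicate 1. The goblet gene Tff3 had 505.8, 160 and 296 CPM in QCM and 44.9, 121.9 and 169.6 CPM in SCM, which overlapped, and an estimate of -1.42 ± 0.46. Among the 415 lower genes, 2.88% of all tested, were 35 of 83 ribosomal protein genes (median -1.06) and 37 of 75 oxidative phosphorylation genes (median -0.91). These are the largest lists. Of the smaller ones, 3 of 7 goblet, 3 of 6 enteroendocrine, 2 of 6 Paneth and 3 of 14 enterocyte genes were among the 415. The G2 and M phase and S phase lists had medians of 0.08 and -0.08, the latter 0.05 when SCM replicate 1 was dropped. The G2 and M phase median turned as well, to -0.031 without the 5% deepest nuclei and -0.0059 without QCM replicate 1. It was -0.0165 without SCM replicate 2 and -0.022 without SCM replicate 3. The number called was 0 in every list.

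**Figure D5:**
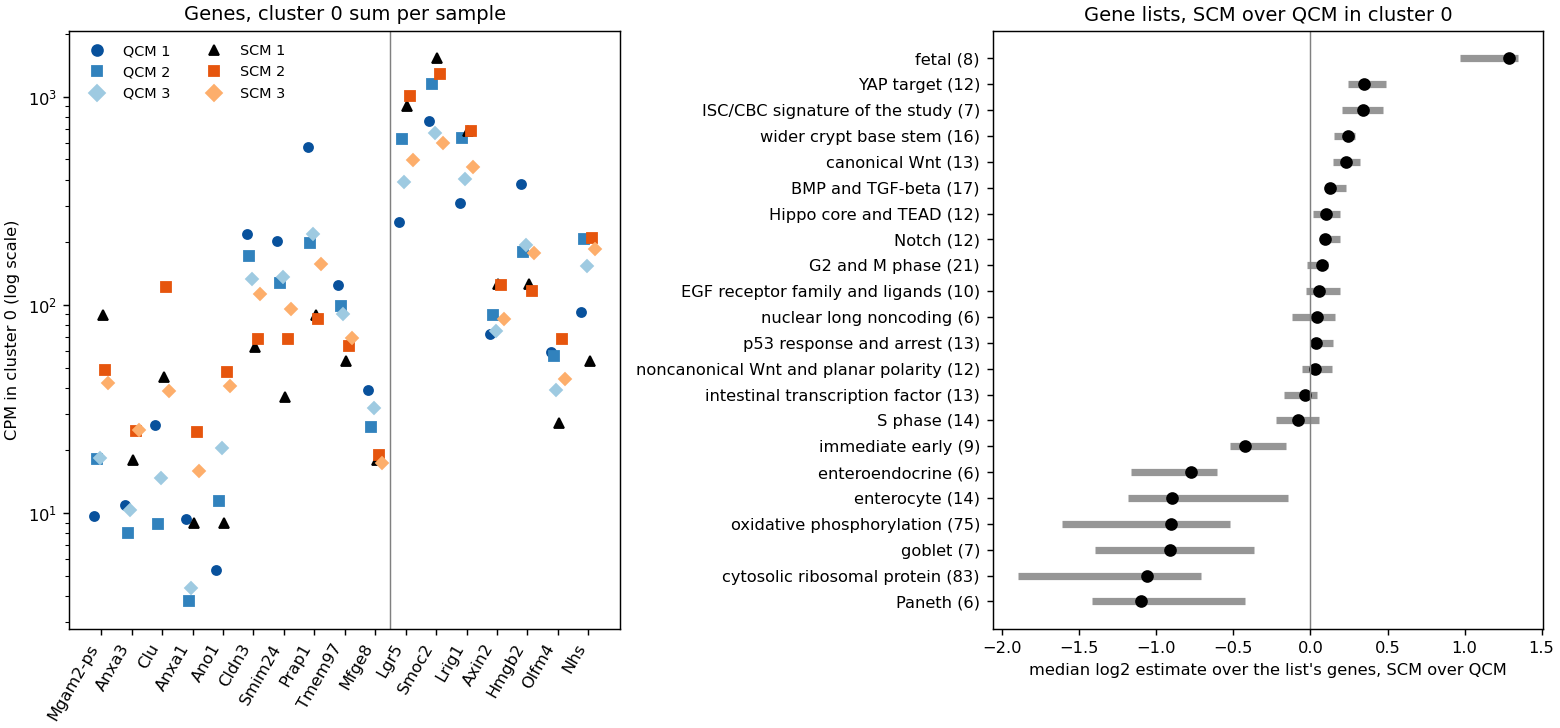
Left, CPM in the cluster 0 sum of each sample, on a log scale, for the 5 genes higher and 5 lower in SCM with the smallest unadjusted p and, right of the line, for stem cell genes and Nhs. Right, the median log2 estimate of SCM over QCM for each gene list (number of genes in brackets), with grey bars from the lowest to the highest value when each sample was left out in turn. The fetal list lies highest at 1.29 and the Paneth list lowest at -1.10, and no gene shown passed the adjusted test. Lists and members were chosen with earlier results of these data known.

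QCM replicate 1 had the deepest cluster 0 nuclei (median 6683 UMIs) and the highest ribosomal share (11.2%) of the 6 samples. With QCM replicate 1 alone left out, the medians were -0.15 for enterocyte, -0.37 for goblet, -0.42 for Paneth, -0.71 for ribosomal protein and -0.52 for oxidative phosphorylation genes, and 1.32 for the fetal list. With SCM replicate 3 left out, the ribosomal protein median was -1.90, the oxidative phosphorylation median -1.61, the goblet median -0.56 and the enteroendocrine median -1.16, and the goblet median was -1.40 when SCM replicate 2 was dropped. With SCM replicate 1 left out, the fetal median was 1.35, the enterocyte median -0.79 and the ribosomal protein median -0.84. Without replicate 1 of both media the enterocyte median came to -0.06, the goblet median to -0.31, the Paneth median to -0.41 and the ribosomal protein median to -0.51, while the fetal median was 1.39. The part of depth and RNA make-up in these medians was not tested.

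The change with medium was not shown to differ between cluster 0 and the other nuclei. The test of that difference, on 12 sums with the sample as a block, called 0 of 17062 genes in edgeR (0%), with 538 (3.15%) at an unadjusted p under 0.05. Lgr5 had a difference of 0.14 ± 0.14 and Clu one of -0.44 ± 0.23 on the log2 scale (SE; edgeR adjusted p = 1 for both), and Clu in the other nuclei of SCM averaged 217 CPM. Without QCM replicate 2 the count was 31 and without SCM replicate 3 it was 11.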

How the data were processed

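Single-nucleus RNA-seq counts of 6 samples were used. Per the processing notes of the submitters, reads were processed with Cell Ranger 2.1.1 against mm10. The authors deposited UMI counts per gene and nucleus, the fraction of mitochondrial UMIs, UMAP scores and a cluster number, after leaving out nuclei far from the population in depth, features or mitochondrial reads and clustering with Leiden on Harmony-corrected components. How the counting treated the strand is not given in the sources used here.

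The deposited counts of cluster 0 and of all other nuclei were summed per sample and divided by their total (CPM). Log2 ratios used a pseudocount of 1 CPM, and genes at 10 CPM or more in either sum were described. Thinning drew 1000 UMIs per nucleus without replacement. No doublet caller was run, and the 5% deepest nuclei were left out as an alternative. SCM was tested against QCM with edgeR 4.0.16 (quasi-likelihood, TMM, filterByExpr) in R 4.3.3, adjusted after Benjamini and Hochberg, with DESeq2 1.42.0 and limma 3.58.1 as alternatives, and single values with exact permutation tests in scipy 1.17.1 under Python 3.11.15. The SE of an edgeR log2 ratio was not fitted. It was the size of the ratio divided by the square root of the quasi-likelihood F statistic, and for some genes it departs from the p-value. The edgeR test was also run on simulated counts, where it recovered 90.7% of 4-fold and 98.9% of 8-fold changes, with 6 false calls. Those counts came from a common mean profile and lacked the profiles of single outlying samples. The recovery therefore need not hold for the real data.

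Named were the 15 leading genes (50 CPM or more in cluster 0) and the 10 lowest (50 CPM or more in the other nuclei). Between media, the 5 higher and 5 lower in SCM with the smallest p (10 CPM or more) were named. Stem cell genes, Nhs, Ptk7, Fzd7, Yap1 and genes singled out by earlier results were added. So were the 10 genes with the highest ratio of variance to mean and the 5 most like Lgr5. Members and lists were chosen with earlier results of these data known. Matrices that pool samples were not used, and part of the S phase list was not analysed here. Wilson intervals at 95% and limits of 3 counts cover counting error only.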

Additional observations from a re-analysis of the deposited data

How the results depend on the processing

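Between media, the count of 0 called genes became 133 without the filter on low counts and remained 0 under the other alternatives, including each sample left out, DESeq2, limma and the replicate block. The count for the difference between cluster 0 and the other nuclei became 11 with library size alone, 2 without the filter, and 0 to 31 with each sample left out. The difference in the share of nuclei ranged from -9.23 to 9.66 percentage points with each sample left out, and was 0.985 without replicate 1 of both media. The difference in UMIs per nucleus ranged from -2438 to 70.2, and was 328 without replicate 1 of both media. The number of genes higher in cluster 0 in every sample became 1057 with thinned nuclei and 3135 without SCM replicate 1. The direction turned for Yap1 (-0.0347 with thinned nuclei), for Nhs (-0.0322 with the replicate block, -0.14 to 0.37 with each sample left out) and for Olfm4 (0.0363 with library size alone, 0.0494 with the block, 0.23 thinned, 0.20 without replicate 1 of both media, -0.39 to 0.12 with each sample left out). The cause of these changes was not tested. Of the values for named genes between media, 326 kept their direction and side of the threshold, 13 turned and 8 passed the threshold, all 8 without the filter. The alternatives without replicate 1 of both media, the median without SCM replicate 1 and the filter at 10 CPM in both sums were chosen after seeing the data.

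The replicate numbers were not taken as pairs in the main test, although the sample names of both media carry the same numbers. Over 4666 genes, deviations of same-numbered samples from their group means correlated at 0.16, 0.59 and 0.06. Those of differently numbered samples correlated at -0.56 to 0.22. Deviations from a mean of 3 samples are bound to each other, so these values cannot decide whether the numbers mark pairs. With the replicate block, edgeR called 0 genes and listed 749 at an unadjusted p under 0.05, and the log2 ratio of the share of nuclei was -0.20 (edgeR adjusted p = 0.89). SCM replicate 1, with 19 nuclei, limits every comparison between media.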
